A study of Mus musculus with 6 samples.

Results

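The mammalian circadian clock is a feedback loop of transcription factors, and 10 of its genes are described here by the RUNX1 peaks found around them in mouse granulosa cells. Peaks were taken where the summit lay inside the RefSeq gene body or within 50 kb of either end, a stretch called the window of the gene below. The windows of the 10 genes held 147 of the 51515 peaks of all 4 lists. Merging peaks that shared at least 1 bp, over all lists, gave 74 sites at these genes out of 29186 in the genome.

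RUNX1 binds DNA as a transcription factor and was mapped by ChIP-seq, which sequences the DNA that comes down with an antibody. Granulosa cells are the somatic cells around the oocyte. All mice were CBA x C57BL/6 F1 animals of 21 days and all received 5 IU of eCG, a gonadotropin that makes follicles grow, so the 0 h group is a stimulated follicle before the ovulatory signal and not an untreated ovary. The other group was collected 6 h after 5 IU of hCG, which acts like the luteinising hormone surge and was given 46 h after eCG. The treatment text of all samples describes collection after hCG, so the 0 h group rests on the sample titles and time labels. Each time point had 2 ChIP libraries and 1 pooled input. The labels do not say whether the libraries came from separate animals, so the spread between them may be technical. The p-values come from exchanging the labels of libraries and do not measure the spread between animals. In a cell population, more cells with bound RUNX1 and more RUNX1 bound per cell cannot be told apart.

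In the clock, CLOCK pairs with BMAL1 (the gene is Arntl) to activate genes through the E-box CACGTG. PER and CRY proteins, the products of Per1, Per2, Per3, Cry1 and Cry2, assemble into the complex that represses CLOCK and BMAL1. The nuclear receptors REV-ERB alpha and beta, encoded by Nr1d1 and Nr1d2, repress Arntl and form a second loop. DBP is an output factor that activates genes through D-boxes, and BHLHE40 is a repressor that binds E-boxes. Clock genes are expressed in ovarian cells.

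The lists were very unequal in length, at 948 and 3135 peaks at 0 h and 18761 and 28671 at 6 h. They hold no read totals, so depth is unknown. The commonest background recovered from each list was 2.77 and 2.65 reads per position at 0 h, and 2.76 and 2.13 at 6 h. It grows with the reads used but also depends on fragment length and on the scaling between ChIP and input. Peak lists hold no expression and cannot check the cell type. As a description, 5 of 7 granulosa marker genes (Foxl2, Amh, Inha, Nr5a2 and Wt1) had a region with overlapping peaks of both replicates in the window at 0 h, against 8.76% of coding genes. At 6 h 6 had one and Fshr had none, against 68.9% of coding genes.

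The starts of the genes are shown first, because 6 h peaks overlapped nearly every clock gene promoter with a sequence at hand. RefSeq (GRCm38.p6) promoter sequences matched 8 of the 10 members with 11 starts, leaving Per2 and Bhlhe40. The 250 bases before 6 of these starts are printed 5′ to 3′ on the gene's strand, with RUNX motifs (TGTGGT or TGCGGT on either strand, so also ACCACA or ACCGCA) and the E-box CACGTG in capitals. Both Per1 starts lie under the same 6 h peaks and differ in motif. Cry1 and Cry2 carry the other matches under a 6 h peak, and Nr1d2 and Dbp are shown because a 0 h peak overlapped their promoter stretch.
Per1, upstream start, chr11:69098699-69098948 (plus strand): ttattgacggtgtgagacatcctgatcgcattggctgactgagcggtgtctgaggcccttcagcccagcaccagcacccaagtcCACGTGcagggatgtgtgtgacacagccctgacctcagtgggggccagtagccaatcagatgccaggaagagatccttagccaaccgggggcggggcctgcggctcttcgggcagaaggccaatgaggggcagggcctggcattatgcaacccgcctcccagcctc
Per1, downstream start, chr11:69099902-69100151 (plus strand): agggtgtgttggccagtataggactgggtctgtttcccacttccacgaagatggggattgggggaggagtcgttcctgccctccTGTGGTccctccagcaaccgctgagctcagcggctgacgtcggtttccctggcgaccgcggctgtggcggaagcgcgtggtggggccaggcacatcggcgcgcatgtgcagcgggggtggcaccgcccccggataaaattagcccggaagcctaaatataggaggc
Cry1, chr10:85185055-85185304 (minus strand): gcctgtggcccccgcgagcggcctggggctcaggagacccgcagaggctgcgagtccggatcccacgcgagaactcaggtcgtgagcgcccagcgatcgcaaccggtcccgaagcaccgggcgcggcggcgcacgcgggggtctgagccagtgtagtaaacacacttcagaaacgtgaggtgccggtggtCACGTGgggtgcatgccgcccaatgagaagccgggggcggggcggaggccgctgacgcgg
Cry2, chr2:92434070-92434319 (minus strand): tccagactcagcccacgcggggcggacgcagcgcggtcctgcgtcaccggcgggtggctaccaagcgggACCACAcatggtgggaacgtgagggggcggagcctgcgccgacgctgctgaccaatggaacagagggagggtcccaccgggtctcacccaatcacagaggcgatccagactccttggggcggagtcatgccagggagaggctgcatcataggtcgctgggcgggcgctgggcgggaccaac
Nr1d2, chr14:18239107-18239356 (minus strand): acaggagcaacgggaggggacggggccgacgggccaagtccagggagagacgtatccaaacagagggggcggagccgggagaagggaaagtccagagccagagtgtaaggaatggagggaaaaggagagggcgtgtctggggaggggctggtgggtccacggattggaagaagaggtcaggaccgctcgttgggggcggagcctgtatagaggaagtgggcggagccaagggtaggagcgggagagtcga
Dbp, chr7:45704997-45705246 (plus strand): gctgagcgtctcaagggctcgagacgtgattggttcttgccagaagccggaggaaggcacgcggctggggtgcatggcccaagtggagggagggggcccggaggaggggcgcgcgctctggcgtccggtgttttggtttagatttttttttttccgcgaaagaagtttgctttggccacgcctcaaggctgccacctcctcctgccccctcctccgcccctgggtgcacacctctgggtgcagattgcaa

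The E-box of Per1 begins 166 bases before the upstream start, and that of Cry1 60 bases before its start. TGTGGT stands 166 bases before the downstream Per1 start, and its reverse complement, ACCACA, 181 bases before the Cry2 start. Over the promoter stretch from 250 bases before to 50 bases from the start, 3 of the 11 member promoters held a RUNX motif, namely these 2 and 1 start of Clock, and 2 held an E-box. Among 21263 promoters of protein-coding genes, 21.6% held a RUNX motif and 7.84% an E-box. Among the 7285 of these overlapped by a peak of both 6 h libraries, the shares were 23.3% and 12.2%. The RUNX share pools forms that went opposite ways. TGTGGT on either strand, the only form at the member promoters, was held by 11.6% of these 7285 and 16.7% of the other coding promoters. For TGCGGT these shares were 12.8% and 4.65%. The Clock start with motifs was the only one of the 11 that no 6 h peak overlapped. The Nr1d2 and Dbp promoters held none of these letters in this stretch, and a match is a description of the sequence, not a measured site.

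At 6 h, 10 of the 11 promoters were overlapped by a peak of both libraries, which covered all 8 members with a sequence. The same held for 34.3% of all coding promoters, with 34.9% and 42.6% overlapped in replicates 1 and 2 taken singly. At 0 h replicate 1 overlapped 1 of the 11, that of Nr1d2, against 1.27% of all coding promoters. Replicate 2 overlapped 2 of them, the upstream start of Per1 and the start of Dbp, against 6.71%. No clock promoter was overlapped in both 0 h libraries, and over all coding promoters that share can be no more than the 1.27% of replicate 1.

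RUNX1 peaks were found at every clock gene after hCG and at some of them before it. At 0 h, 4 members had a peak in replicate 1 and 6 in replicate 2. At 6 h all 10 members had peaks in replicate 1 and in replicate 2. A peak was present at 9.43% (replicate 1) and 28.2% (replicate 2) of all 21887 protein-coding genes before hCG, and at 69.3% and 76.1% after it. A region with overlapping peaks of both replicates, called replicated here, was present at 3 of 10 members at 0 h, namely Per1, Nr1d1 and Dbp, against 8.76% of coding genes. All 10 had a replicated region at 6 h, against 68.9% of coding genes, but this count depends on list length. When each list was held to its 948 peaks of lowest p, 2 members (Per1 and Nr1d1) had a replicated region at 0 h, against 6.41% of coding genes, and 3 (these and Nr1d2) at 6 h, against 6.86%. Peaks whose −log10 q reached 20 left 1 member at 0 h, against 3.87% of coding genes, and 10 at 6 h, against 61.4%. The gene body of the median member was 32.7 kb long against 17.2 kb for all coding genes, so the windows were longer too, and the part of window length and gene density in these shares was not tested.

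The count of members with a 0 h peak differed between the libraries. It was 4 in replicate 1, against 9.43% of coding genes, and 6 in replicate 2, against 28.2%. Per1, Nr1d1, Nr1d2 and Dbp had peaks in both libraries, and Per2 and Bhlhe40 in replicate 2 only. Either library had one at 6 members, against 28.7% of coding genes. With gene bodies in place of windows, 1 member, Per1, had a replicated region at 0 h, against 2.18% of coding genes, and 9 had one at 6 h, against 37.8%. Such a region counted when the summit of either library lay in the gene body, and at Cry2 that was so in 6 h replicate 2 only.

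**Figure D1:**
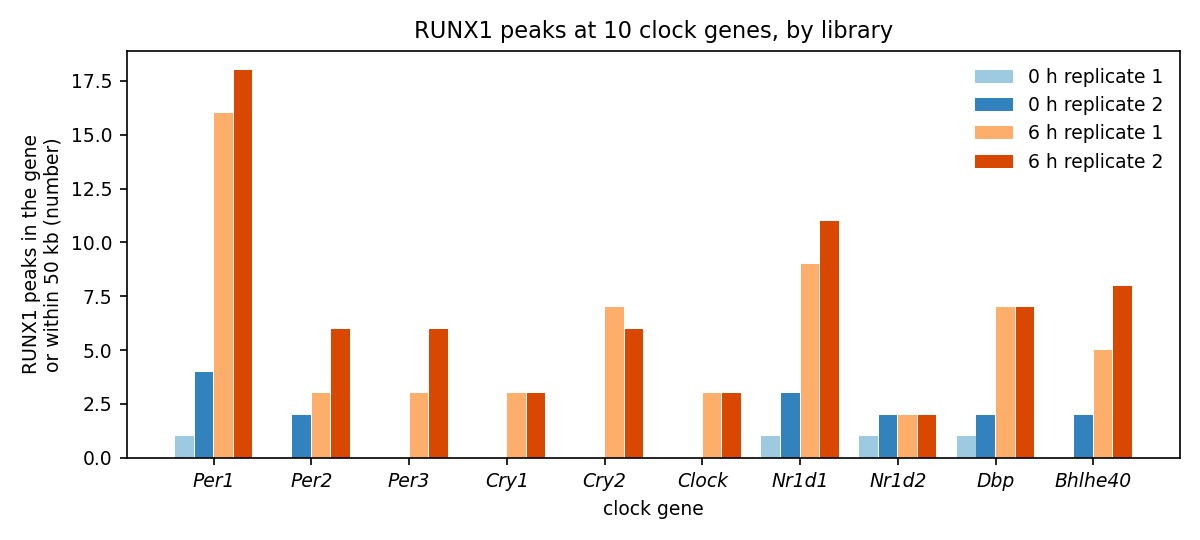
Number of RUNX1 peaks with a summit in the gene or within 50 kb (vertical axis) at each of the 10 clock genes, with 1 bar per library. Per1 has the tallest bars, 16 and 18 at 6 h, and Nr1d2 has 2 in both 6 h lists and 1 and 2 at 0 h.

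The 0 h lists held 4 and 15 peaks at the clock genes, and the 6 h lists 58 and 70. Every 6 h library lay above every 0 h library. The means were 9.50 ± 7.78 (SD, n = 2) and 64.0 ± 8.49 (SD, n = 2), and on the log2 scale the difference was 3.04 (exact permutation test over libraries, two-sided, p = 0.33, the smallest p that 2 against 2 libraries can give). It was 2.09 without 0 h replicate 1 and 3.99 without 0 h replicate 2. With each list held to its 948 peaks of lowest p the difference was 0.40, while keeping peaks whose −log10 q reached 20 gave 4.84. The ratio of the means was 6.74 at the clock genes and 11.6 over whole lists. The share of a list that lay at the clock genes was not higher after hCG: 0.422% and 0.478% before, 0.309% and 0.244% after. This difference of -0.174 percentage points had the same p of 0.33 (exact permutation test, n = 2 per group), and its sign was not fixed. It was 0.0525 with peaks of a −log10 q of at least 20 and 0.158 with lists of equal length.

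When each list was held to its 948 peaks of lowest p, the clock genes had 4 and 3 peaks at 0 h and 7 and 3 at 6 h. The groups then met at 3 peaks. Per1 and Nr1d1 had a peak in all 4 of these shortened lists. Dbp had one in replicate 1 of each time point, Nr1d2 in 0 h replicate 1 and both 6 h libraries, Bhlhe40 in 0 h replicate 2 and Cry2 in 6 h replicate 1.

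More peaks in both 6 h lists than in either 0 h list were found at 9 of the 10 members, against 64.7% of coding genes, and Nr1d2 was the exception. Between the members the number at 6 h differed widely. Per1 had 16 and 18 peaks, more than 99.8% of coding genes in both libraries, in a window with 7 other coding genes. Its mean difference between the time points was 14.5 peaks in this window and 3.0 within 10 kb of the gene. Nr1d1 followed with 9 and 11, more than 96.7% and 96.8% of coding genes. Dbp had 7 and 7, Cry2 7 and 6, and Bhlhe40 5 and 8. Per2 and Per3 had 3 and 6 each. Cry1 and Clock had 3 and 3, a number above that of 63.0% and 49.9% of coding genes, although Clock has the longest gene body of the 10 at 95.7 kb. Nr1d2, with 2 and 2, was the lowest, above 47.6% and 37.1%. Neighbours in this order from Dbp to Per3 overlapped in their replicate values.

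Of the 74 merged sites, 51 had a peak in both 6 h lists, 19 in 6 h replicate 2 only and 4 in 6 h replicate 1 only. These are 68.9%, 25.7% and 5.41% of the sites, where the genome had 58.9%, 38.1% and 2.34%. A 0 h peak was present at 14 sites, or 18.9% against 10.4% in the genome, and each of these also had peaks in both 6 h libraries. None of the members' sites was found at 0 h alone, and 74 of the 29186 sites of the genome were. Of the 51 sites of both 6 h lists, 14 held a 0 h peak, or 27.5%, against 16.5% of such sites in the genome. All of these 14 had the peak of 0 h replicate 2, and only 4 also that of replicate 1. The peaks of the 2 libraries at a time point overlapped unequally. At 0 h, 3 of the 4 peaks of replicate 1 and 3 of the 15 of replicate 2 had a partner. At 6 h, 54 of 58 and 51 of 70 had one. These shares were 75.0%, 20%, 93.1% and 72.9%, and over whole lists they were 90.1%, 27.0%, 96.3% and 60.8%, so the same imbalance ran through the whole lists.

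**Figure D2:**
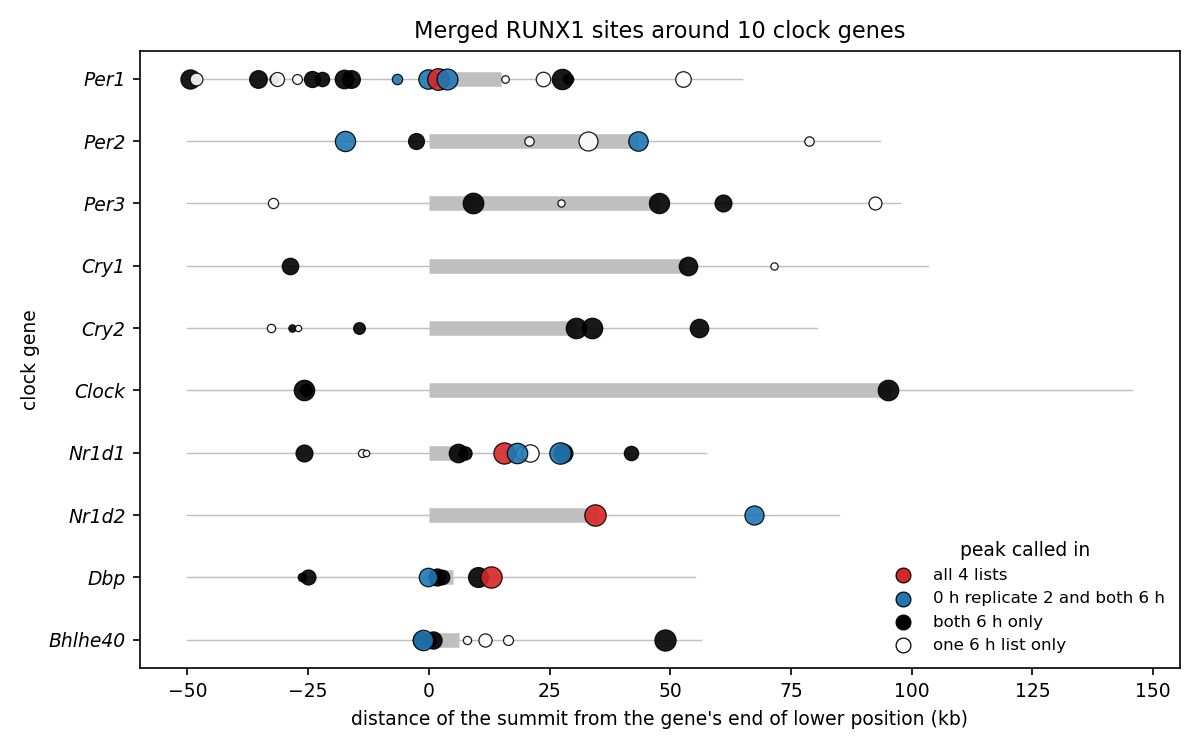
Merged RUNX1 sites (circles) along each clock gene, with the gene body as a thick grey bar and the window of 50 kb on either side as a thin line. The horizontal axis is the distance of the summit from the end of lower position in kb, colour gives the lists with a peak, and larger circles have a higher percentile of fold in a 6 h list. Sites with a 0 h peak sit at Per1, Per2, Nr1d1, Nr1d2, Dbp and Bhlhe40, and the 4 in all lists at Per1, Nr1d1, Nr1d2 and Dbp.

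The rank of a peak is given below as the percentile of its fold enrichment within its own list, since the authors' fold (ChIP over local background at the summit) depends on the depth of each library. The pileup is the number of reads over the summit, recovered from the fold and p of each peak. It is compared across libraries only after division by the commonest background of the list, the scale called pileup over background here.

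Per1, a repressor that is also an immediate-early gene of cAMP signalling, had the strongest site of the 10 genes. It lay at chr11:69096830-69097917, inside the RefSeq gene body and with its summit 1854 bp before the upstream start printed above. Fold enrichment was 13.2 and 18.5 before hCG and 37.5 and 49.8 after it, or percentiles 92.9, 98.4, 99.3 and 98.9 of the lists, so it ranked high in every library. The summit held 56 and 76 reads at 0 h, and 215 and 232 at 6 h. Divided by background these were 20.2 and 28.7 against 77.9 and 109, with no overlap between the time points. The next site, at chr11:69098356-69100332, covered both starts. It had a fold of 19.3 and 25.7 at 6 h (percentiles 92.1 and 91.1) and a weak peak in 0 h replicate 2, with a fold of 5.40 at percentile 11.7. Another site, across the outer end of the gene body at chr11:69094574-69095958, ranked at percentiles 51.1 and 78.6 at 6 h and 43.7 in 0 h replicate 2. The fourth site with a 0 h peak, chr11:69088242-69089063, lay 30 bp from an end of Vamp2 and was weak throughout, with a fold of 4.14 in 0 h replicate 2 and 5.96 and 7.02 at 6 h. Only 5 of the 20 Per1 sites had the end of Per1 as their nearest coding gene end. The others lay nearer to Aurkb, Borcs6, Tmem107, Vamp2, Hes7 or Aloxe3.

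Per2, the paralogue with a central place in the loop, had a site across its end at chr1:91458898-91459735, with the summit 92 bp from that end. After hCG its fold reached 11.6 and 17.3, percentiles 72.5 and 79.1, against 5.53 in 0 h replicate 2, at percentile 13.7. Its strongest site, at chr1:91398150-91399173, was 17395 bp away and 262 bp from an end of Ilkap. That site had a fold of 14 and 20.8 at 6 h and of 7.70 in 0 h replicate 2. Neither site was found in 0 h replicate 1.

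Per3 had no 0 h peak in either library. Its start, at chr4:151044243-151045105, reached a fold of 13.9 and 20.5 in the 6 h libraries, ranked at percentiles 81.5 and 85.5. A site inside the gene at chr4:151005951-151006411 gave 13.8 and 23.8 on the same scale, ranked at 81.2 and 89.5. The latter lay 9144 bp from an end of Per3 and 4352 bp from one of Uts2.

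Cry1 and Cry2, which encode the repressor partners of the PER proteins, also had no 0 h peak. The Cry2 start had a wide site at chr2:92433571-92434812 with 150 and 141 reads at the summit at 6 h, a fold of 16.7 and 16.8, and percentiles 88.2 and 77.6. A second Cry2 site, at chr2:92437283-92438161 and 3405 bp before the start, had fewer reads, 57 and 93, and a fold of 13.8 and 22.9. Its percentiles were 81.2 and 88.5, and their mean of 84.8 was the highest of the Cry2 sites. The Cry1 start, at chr10:85184301-85185589, had 73 and 71 reads and was enriched 11.2-fold and 12.1-fold. This was the strongest Cry1 site, and its percentiles of 70.4 and 58.9 were below those of the strongest site of each of the 9 other members in both libraries.

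Clock, the activator, had 3 sites, all in both 6 h libraries and none at 0 h. The start site, at chr5:76303971-76305368, was enriched 14.9-fold and 23.3-fold, ranked at percentiles 84.5 and 89.0. The remaining 2 sites lay at the start of Tmem165, where the stronger one, at chr5:76183659-76184194, had a fold of 16.4 and 15.6.

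The Nr1d1 window held 12 sites, and the 3 of highest rank lay outside the gene. The start itself, at chr11:98775210-98776391, was enriched only 7.16-fold and 5.49-fold after hCG, ranked at percentiles 32.0 and 4.39. A site at chr11:98783151-98784020, 8166 bp before the start, was found in all 4 lists. Enrichment was 5.20-fold and 7.76-fold before hCG, then 19.4-fold and 33.1-fold, ranked at percentiles 11.0, 59.5, 92.3 and 95.4. The 0 h summits held 38 and 55 reads and the 6 h summits 159 and 217, or 13.7 and 20.8 against 57.6 and 102 over background. Farther out, a site at chr11:98785677-98786795 had a 0 h replicate 2 peak at percentile 18.9 and reached percentiles 87.5 and 85.2 at 6 h. The highest rank in the window belonged to chr11:98794543-98795431, inside Msl1 and 331 bp from a start of that gene, with a fold of 26.9 and 35.1 at 6 h and of 8.08 in 0 h replicate 2.

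Nr1d2 had few but strong sites. The one at its start, chr14:18237971-18239416, was enriched 19-fold and 38.1-fold after hCG, ranked at percentiles 91.7 and 97.1. At 0 h it was near the bottom of the lists, enriched 4.99-fold and 4.44-fold and ranked at 9.34 and 3.08. The 0 h peaks, at chr14:18238888-18239134 and chr14:18238499-18238721, did not overlap each other, so Nr1d2 is not among the 3 members with a replicated region at 0 h. Summit reads numbered 22 and 28 before hCG, then 201 and 231, or 7.94 and 10.6 against 72.8 and 108 over background. The second site, at chr14:18270331-18271552, lay 194 bp from an end of Nkiras1, with a fold of 12.4 and 15.9 at 6 h and of 7.19 in 0 h replicate 2.

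Dbp lies in a dense stretch with 9 other coding genes in its window. Its start site, at chr7:45704591-45705489, was enriched 10.6-fold and 14.6-fold after hCG (percentiles 66.5 and 70.6), and 7.30-fold in 0 h replicate 2, at percentile 50.1. Sites inside the gene, one at chr7:45706559-45707242 and one at chr7:45707489-45707956, ranked between percentiles 35.7 and 58.7 at 6 h. The site found in all 4 lists, at chr7:45717580-45718544, lay 7795 bp beyond Dbp and 4 bp from an end of Sphk2, inside Sphk2 and Rpl18. Enrichment was 4.82-fold and 6.59-fold before hCG, then 24.9-fold and 27.6-fold. The 0 h summits held 49 and 42 reads and the 6 h summits 204 and 181, or 17.7 and 15.8 against 73.9 and 85.0 over background.

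Bhlhe40 had no other coding gene in its window, and all of its 8 sites had its own end as the nearest. The 2 peaks of 0 h replicate 2 fell in 1 site at chr6:108659293-108660564, whose summit lay 1099 bp outside the gene. The stronger had a fold of 12 at percentile 91.8, the second-highest rank of the 15 clock gene peaks in that library. At 6 h this site was enriched 12.7-fold and 21.8-fold, ranked at percentiles 77.2 and 87.2. The strongest 6 h site was distant, at chr6:108709331-108710163 and 42707 bp from the gene. It had 78 and 130 reads, a fold of 15.7 and 31.9, and no 0 h peak.

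The 4 sites found in all lists were compared on the scale of pileup over background. Each 6 h value exceeded each 0 h value at all 4 sites. At Per1 the means were 24.4 ± 5.98 before hCG and 93.4 ± 21.9 after it (SD, n = 2 libraries each), and the geometric means differed 3.83-fold. At Nr1d1 the ratio was 4.54-fold, from 17.2 ± 4.98 to 79.7 ± 31.3. Dbp gave 4.73-fold, from 16.8 ± 1.30 to 79.4 ± 7.82. Nr1d2 gave 9.70-fold, from 9.25 ± 1.86 to 90.6 ± 25.2, with 0 h peaks that did not overlap each other. Over the 4 sites the mean log2 difference was 2.41 (exact permutation test over libraries, two-sided, p = 0.33, n = 2 per group, the smallest possible). The median over the 4 was 2.21, against 1.85 over the 795 sites of the genome found in all lists, of which 98.2% were higher at 6 h. The log2 differences of Per1, Nr1d1 and Dbp lay between 1.94 and 2.24. That of Nr1d2 was 3.28, but its 0 h replicate 1 summit stood apart from the other summits of the site, so this value compares different positions. With summits required to lie within 100 bp of each other, 3 sites entered and the mean log2 difference was 2.12. Sites had to reach the peak threshold at 0 h to enter, and summits are the highest points of their peaks.

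**Figure D3:**
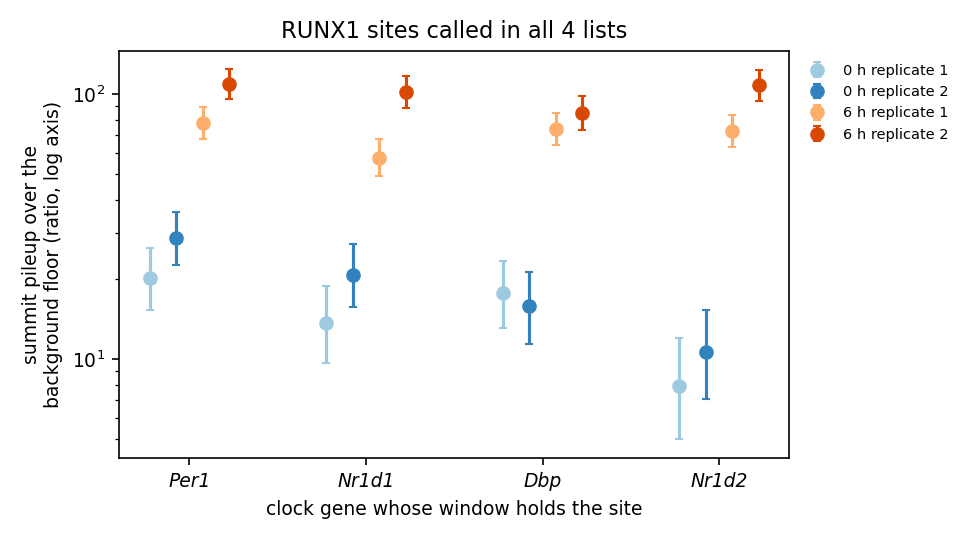
Summit pileup divided by the commonest background of the list (vertical axis, logarithmic) at the 4 sites found in all lists, with 1 point per library and the exact Poisson 95% interval of the pileup, which covers counting error only. At each site both 6 h points lie above both 0 h points, and Nr1d2 has the lowest 0 h values, 7.94 and 10.6.

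At the commonest background, 18 reads in 0 h replicate 1 and 17 in 0 h replicate 2 reach the lowest p of the list. At the highest local background seen at a clock gene peak of each 0 h library, 9.38 and 6.22, the limits were 33 and 26 reads. The 37 sites with peaks in both 6 h lists and none at 0 h have no 0 h value, and their local background at 0 h is unknown, so a level of binding at 0 h under these limits was not detectable.

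The rank of the clock gene peaks within their lists was near the middle at 6 h. The median percentile of fold was 10.2 and 49.1 before hCG, then 55.7 and 53.1. The difference of 24.8 points (two-sided p = 0.33 by exact permutation of 2 against 2 libraries) rested on the 4 peaks of 0 h replicate 1, and without that library it was 5.34. It was 44.3 without 0 h replicate 2, and it turned to -25 with a −log10 q of at least 20 and to -20.6 with lists of equal length, where the first leaves 1 and 3 clock gene peaks at 0 h and the second 4 and 3 before hCG but also only 7 and 3 after it. The strongest peak of each member ranked higher, with a median of 88.0 and 91.1 over the 10 members at 6 h, against 75.6 and 80.3 over all coding genes with a peak. At 0 h these medians were 10.2 and 61.6 over the 4 and 6 members with a peak, against 49.3 and 56.3, so replicate 1 went the other way. The members also had more peaks per window at 6 h, with medians of 4 and 6 against 2 and 3 over all coding genes, and the part of this in the best rank was not tested. Median widths of clock gene peaks were 240 and 305 bp before hCG, then 651 and 566 bp. Over whole lists they were 263 and 292 bp, then 415 and 412 bp.

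**Figure D4:**
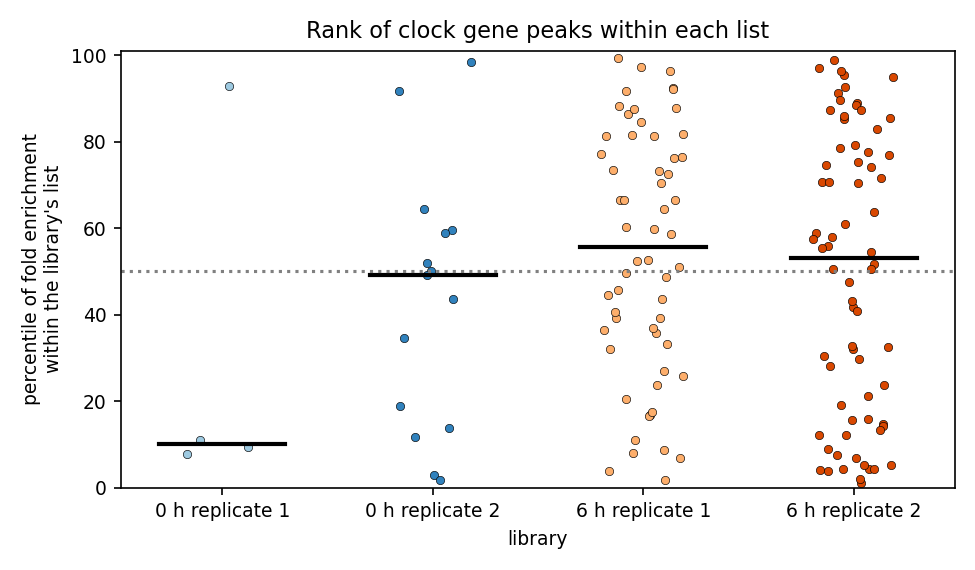
Percentile of fold enrichment within the list (vertical axis) of each clock gene peak, with 1 point per peak, grouped by library, the median as a bar and the middle of the list as a dotted line. The 6 h medians, 55.7 and 53.1, lie just above the middle, and the highest point in each library is the Per1 site.

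The share of clock gene peaks within 1 kb of an end of a member was 25% and 33.3% at 0 h, or 1 and 5 peaks, and 19% and 15.7% at 6 h, or 11 and 11 peaks. The difference of -11.8 percentage points (two-sided p = 0.33, exact permutation of the libraries) changed sign with a window of 10 kb, where it was 3.11. It was 19.3 with a −log10 q of at least 20 and 18.5 with equal lists, so no direction can be given.

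The other genes of the clock pathway were examined as a list of 18. All 18 had a replicated region at 6 h, against 68.9% of coding genes, and none had one at 0 h, against 8.76%. A 0 h peak in replicate 2 was present at 6 of them (Rora, Tef, Ciart, Csnk1d, Btrc and Usp2), where the share over coding genes was 28.2%. None had one in replicate 1, where that share was 9.43%. Tef, a PAR bZIP factor related to Dbp and singled out after its values were seen, had 7 peaks in 0 h replicate 2, none in 0 h replicate 1, and 6 and 10 at 6 h. Rora, an activator of Arntl that competes with the REV-ERB receptors, had the highest mean percentile over the 6 h libraries for its strongest site, 96.4, from 94.6 and 98.2, with a fold of 22.1 and 43.9. Nfil3, a repressor at D-boxes, had a mean of 95.2, from 96.7 and 93.8, and ranked above Rora in replicate 1, with a fold of 25.8 and 29.6. Arntl had no 0 h peak, 3 and 3 peaks at 6 h, and a strongest site at percentiles 92.1 and 88.2. Ciart had a mean percentile of 90.1, as did Arntl. The 10 members and the 18 other genes thus both had regions throughout at 6 h, and the difference between these lists at 0 h was not tested.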

How the data were processed

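RUNX1 ChIP-seq libraries had single-end reads of 75 nt, per the labels. Per the submitters' processing notes, Bowtie2 2.2.5, MACS2 and the mouse build mm10 (GRCm38) were used, and other settings are not given in the sources used here. The authors deposited 1 peak list per library, called against an input pooled within the time point per the series design and peak names. Each deposited list holds, per peak, the fold enrichment (a ratio), the −log10 of its p and q, and a score equal to 10 times the −log10 p, which was not used. The inputs enter only through the calls. Positions are counted from 1.

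Gene bodies came from RefSeq on GRCm38.p6 and start sites from its promoter table. Pileup and background were solved from fold and p (Poisson, pseudocount 1, misfit at most 0.005), with a solution for 100% of peaks in each list, and the method was tested on simulated data. Regions shared at least 1 bp. Library values were compared by exact permutation. Alternatives changed the window, threshold, list length, assignment, matching rule, ranking or libraries. The members and lists were chosen with earlier results of these data known. Text names every member, each site with a 0 h peak, each member's strongest 6 h site, and listed clock genes with the 3 highest mean percentiles. Start sites and some further sites were singled out after their values were seen. Python 3.11.15, pandas 2.3.3 and scipy 1.17.1 were used.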

Additional observations from a re-analysis of the deposited data

How the results depend on the processing

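Across the alternatives, 60 of 71 values of the comparisons kept their direction and, for counts, stayed within 1.5 times. The exceptions were as follows. With a window of 10 kb the difference in the share within 1 kb of a member end became 3.11 percentage points. With gene bodies only, members with a replicated region at 0 h numbered 1. With a −log10 q of at least 20 the 0 h count was also 1, the share of a list at clock genes differed by 0.0525 points, the median percentile by -25.0 and the share within 1 kb by 19.3. With equal lists these differences were 0.158, -20.6 and 18.5, and members with a replicated region at 6 h numbered 3. Each of these settings leaves fewer peaks by construction, and the cause was not tested further. The remaining exception was the 0 h count of members without 0 h replicate 1, given below. The log2 difference in the number of peaks kept its sign but was 2.12 with a window of 10 kb, 2.48 with gene bodies, 2.19 where the nearest coding gene end had to be the member's, 4.84 with a −log10 q of at least 20 and 0.40 with equal lists. Of the differences in peak number at single genes, 89 of 100 kept their sign, whatever their size. At Per1 the difference of 14.5 peaks was 3.0 with a window of 10 kb, 1.0 with gene bodies, 2.0 with the nearest end and 0.50 with equal lists. With equal lists the mean difference, 6 h minus 0 h, was -0.50 at Bhlhe40 and 0 at Per2, Per3, Cry1, Clock and Dbp. It was also 0 at Cry1 with gene bodies, and at Nr1d2 with a window of 10 kb, gene bodies, the nearest end and without 0 h replicate 1. The 0 h count of members was 6 without 0 h replicate 1 and 4 without 0 h replicate 2. With 1 library left, this count took members with any peak, so it is not a count of replicated regions. Without 0 h replicate 1, 14 sites rather than 4 entered the pileup comparison, and its log2 difference was 1.81.

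Replicate numbers are shared by the time points, but no label ties same-numbered libraries together. With the replicate block the differences were unchanged, at 3.04 for the log2 number of peaks and 2.41 for the log2 pileup, with an exact sign-flip p of 0.50, the smallest that 2 pairs allow. Across the 10 members the deviations of same-numbered libraries had a correlation of 0.574, given as a hint only. With 2 libraries per time point no test here could pass 0.05.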

Other observations

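Many of the clock gene sites lay nearer to another gene. Of the 74 sites, 29 had an end of the member as the nearest coding gene end, and 34, or 45.9%, lay within 1 kb of some coding gene end. Over all 26547 sites within 50 kb of a coding gene that share was 39.4%. Of the 14 sites with a 0 h peak, 7 had the member's end as the nearest, at Per1 (3 sites), Per2, Nr1d1, Nr1d2 and Bhlhe40. The remaining 7 lay nearer to Vamp2, Ilkap, Msl1 (2 sites), Nkiras1, Car11 and Sphk2. Within the Per1 window, a region lay across Hes7, which encodes a repressor that acts downstream of Notch. This region, at chr11:69121156-69123556, was the widest of the 74 at 2401 bp, with a fold of 12.5 and 21.9 at 6 h and no 0 h peak. Hes6, a relative of Hes7 in the Per2 window, had a site 40 bp from its start at chr1:91412654-91413486, with a fold of 7.21 and 10.8 at 6 h.

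Sites with a 0 h peak had a median 6 h percentile of 85.1 and a median width of 1056 bp. Sites of both 6 h lists without a 0 h peak had 51.2 and 675 bp, and the 23 sites of 1 library only had 14.2 and 260 bp. Over all such sites within 50 kb of a coding gene the values were 82.7 and 933 bp, 53.4 and 573 bp, and 26.8 and 273 bp. The Dbp promoter site and a site inside Nr1d1, chr11:98773613-98774326, had identical summit values, 69 and 68 reads at 6 h with a fold of 10.6 and 14.6.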
